A study of Mus musculus with 6 samples.

Results

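The subunits of the oxidative phosphorylation machinery were measured as mRNA in mouse fetal liver macrophages, wild-type against Ahrr-deficient. Protein-coding genes were taken by symbol: the Nduf a, b, c, s and v families, Sdha to Sdhd, the Uqcr genes, Cox4 to Cox8, Cycs, Cyc1, the Atp5 genes and the protein-coding genes of mitochondrial DNA. This gave 97 of 16111 genes, of which 89 are nuclear and 8 are encoded in mitochondrial DNA. The nuclear genes comprise 79 subunits and carriers and 10 factors that the symbols bring in, which help to build complexes or join them. The mitochondrial genes mt-Co2, mt-Co3, mt-Atp6, mt-Atp8 and mt-Nd4l were not analysed here.

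Both groups were macrophages from the livers of C57BL/6 RCC fetuses at embryonic day E13.5, of genotype WT or AhRR-/-, with 3 libraries each. Ahrr encodes the repressor of the aryl hydrocarbon receptor, a ligand-activated transcription factor. Which part of the gene the AhRR-/- allele lacks is not given in the sources used here. All cells, wild-type included, were grown for 5 weeks with 2% GM-CSF, and non-adherent cells were collected, so the values describe cultured cells rather than freshly isolated ones. PolyA RNA was sequenced from 100 ng of RNA in single reads of 75 bp. The labels number the mice 1 to 3 within each genotype, so libraries with the same number come from different mice.

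Oxidative phosphorylation moves electrons from NADH (complex I) and succinate (complex II) through ubiquinone to complex III, and cytochrome c carries them to complex IV, where oxygen is reduced. Complexes I, III and IV pump protons across the inner mitochondrial membrane, and ATP synthase (complex V) uses the return flow to make ATP. Most subunits are encoded in the nucleus and imported, while a small set of core subunits of complexes I, III, IV and V is made inside the mitochondrion from its own DNA. In macrophages the balance between this machinery and glycolysis is known to shift with activation state.

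Libraries held 3556106 to 41668336 counts, with Ahrr-deficient replicate 1 the smallest. Levels are given as scaled CPM, that is, counts per 1000000 counts of the library after TMM scaling, and folds are those of edgeR's quasi-likelihood test, Ahrr-deficient against wild-type. Ahrr itself had 101, 27 and 38 counts in wild-type and 8, 107 and 12 in Ahrr-deficient replicates 1, 2 and 3, a log2 fold change of -1.21 (SE 0.26; Benjamini-Hochberg adjusted p = 0.0151, edgeR), so reads remained in the deficient libraries. All 10 macrophage markers examined were measured, and their summed level was 24467 to 26882 scaled CPM in wild-type and 15007 to 22757 in Ahrr-deficient libraries. Of the markers of erythroid, liver, megakaryocyte, granulocyte, mast, lymphoid, stromal and endothelial cells, none brought a list's sum above 3.004 scaled CPM in any library. Wild-type replicate 2 stood apart in mitochondrial ribosomal RNA, with 3663 scaled CPM of mt-Rnr1 against 146 to 246 in the other libraries. In these bulk samples, fewer cells of a type and less RNA per cell cannot be told apart.

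With all 6 libraries in the fit, the respiratory chain transcripts differed little between the genotypes. Among the 87 nuclear genes with enough counts to be tested, 4 rose and 2 fell in Ahrr-deficient cells: cytochrome c (Cycs), the catalytic beta subunit of ATP synthase (Atp5b) and the complex I subunits Ndufs1 and Ndufab1 were higher, and Ndufa6 of complex I and Uqcrh of complex III were lower. These 6 are 6.90% of the 87 genes, against 19.6% of all 11408 tested genes. Rises were 9.62% and falls 9.95% of all tested genes. None of the 7 tested mitochondrial genes passed the threshold, an edgeR adjusted p under 0.05, and 1 had an unadjusted p under 0.05. The nuclear count depended on single libraries. Without Ahrr-deficient replicate 1, 27 nuclear genes passed, 22 higher and 5 lower, when 32.6% of all tested genes did. With any other single library left out the nuclear count was 1 to 6, when 6.07% to 10.3% of all tested genes passed.

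With all 6 libraries the fitted changes of the nuclear genes were small as well as rarely past the threshold. The median log2 fold change of the nuclear genes was 0.07, against 0.01 over all tested genes, with 56 above 0 and 31 below. Those above 0 were 64.4% of the nuclear genes, against 50.9% of all tested genes. For 83 of 87 (95.4%) the log2 fold change was within 0.5 of 0, against 81.1% of all tested genes. The 95% interval of the fold change lay wholly within 1.5-fold in either direction for 67 of 87, and for 55.3% of all tested genes. The precision was similar, with a median SE of 0.12 for the nuclear genes and 0.13 over all tested genes. The 3 libraries of one genotype lay wholly above those of the other for 20 of 87 nuclear genes (23.0%), 11 higher and 9 lower in Ahrr-deficient cells, against 38.8% of all tested genes, 19.2% higher and 19.6% lower. The summed macrophage markers given above did not overlap between the groups, a sum made up mostly of Lyz2, which encodes lysozyme and had 19265 to 22261 scaled CPM in wild-type and 11963 to 18976 in Ahrr-deficient libraries. Of the 10 markers, 4 (Lyz2, Cd14, Cd68 and Csf1r) were lower in every Ahrr-deficient library, 1 (Itgax, at 45.9 to 57.7 against 141 to 210) was higher in every one, and the groups overlapped for the other 5. The part of these markers in the values of the respiratory genes was not tested.

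**Figure D1:**
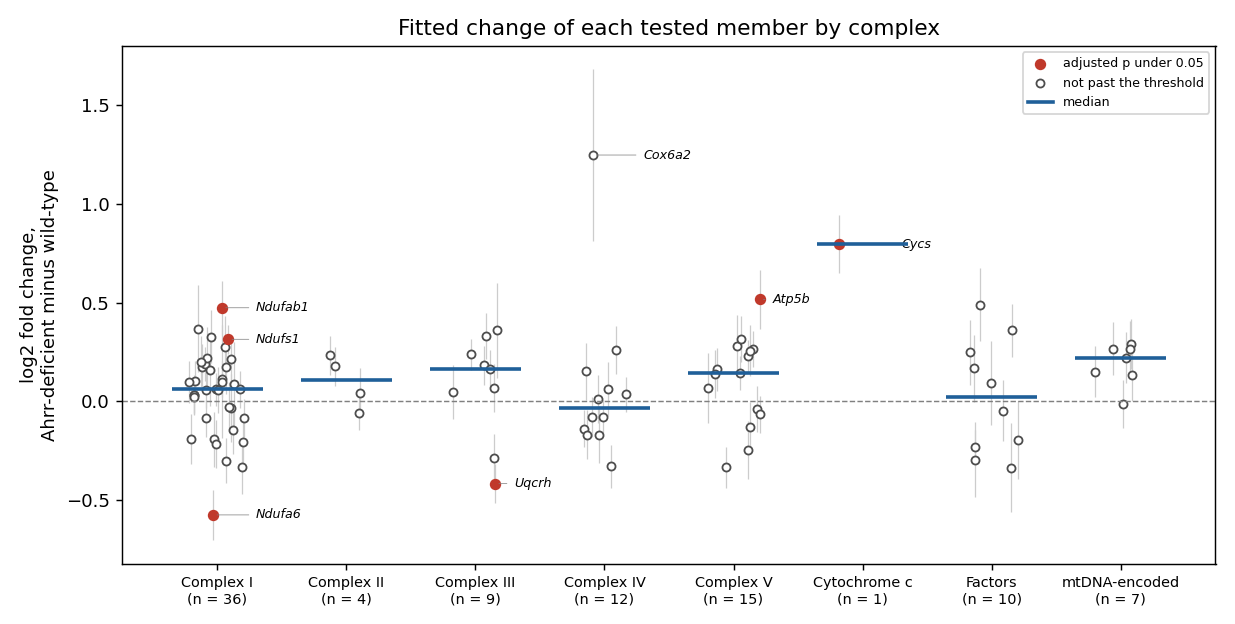
Log2 fold change (Ahrr-deficient minus wild-type, vertical axis) of each tested gene, grouped by complex, with SE bars; red points passed an edgeR adjusted p under 0.05 and blue lines are medians. Most points lie within 0.5 of 0; Cycs, Atp5b, Ndufab1 and Ndufs1 are the red points above 0 and Ndufa6 and Uqcrh those below, while Cox6a2 lies highest with a wide SE and did not pass.

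Cycs, which encodes somatic cytochrome c, the mobile carrier between complexes III and IV and a trigger of apoptosis when released, had the largest change past the threshold. Its level was 17.4, 17.6 and 16.05 scaled CPM in wild-type replicates 1, 2 and 3 and 22.8, 34.6 and 28.3 in the Ahrr-deficient replicates. All Ahrr-deficient libraries were above all wild-type libraries, and the lowest of them was replicate 1. The log2 fold change was 0.79 (SE 0.15), or 1.74-fold, with an edgeR adjusted p of 0.00825. Of the 6 nuclear genes past the threshold, Cycs was the one that passed in every one of the 17 alternative settings. Ndufa6 and Uqcrh passed in 14 each, Ndufs1 in 11, and Ndufab1 and Atp5b in 9 each. Cycs transcripts share 23.9% of their 75-base windows with other annotated genes, mainly Gm10053, Gm10108 and Gm13772. How reads matching several places were counted is not given in the sources used here.

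Textbook regulators of respiratory genes bind short motifs near the start site, so the promoters of 4 of the 6 genes past the threshold are shown, the 3 that hold a motif searched for and that of Atp5b as one without. Motifs were searched on both strands in the 250 bases before the RefSeq start (GRCm38.p6): the NRF1 core GCATGCGC, the cAMP response element TGACGTCA, the ETS core CCGGAAG and the E-box CACGTG. The sequences below read 5′ to 3′ in the direction of the gene, with matches in capitals. In Cycs the cAMP response element begins 169 bases and the NRF1 core 60 bases before the start. The match in Ndufa6 is an NRF1 core that begins 83 bases before the start, and that in Uqcrh is the reverse strand of the ETS core, CTTCCGG, 10 bases before it.
Cycs (chr6:50566570-50566819, minus strand): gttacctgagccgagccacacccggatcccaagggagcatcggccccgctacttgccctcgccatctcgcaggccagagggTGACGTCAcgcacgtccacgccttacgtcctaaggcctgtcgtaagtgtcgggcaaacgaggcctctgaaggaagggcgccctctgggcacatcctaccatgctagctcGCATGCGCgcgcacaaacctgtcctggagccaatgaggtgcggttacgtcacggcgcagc
Ndufa6 (chr15:82354292-82354541, minus strand): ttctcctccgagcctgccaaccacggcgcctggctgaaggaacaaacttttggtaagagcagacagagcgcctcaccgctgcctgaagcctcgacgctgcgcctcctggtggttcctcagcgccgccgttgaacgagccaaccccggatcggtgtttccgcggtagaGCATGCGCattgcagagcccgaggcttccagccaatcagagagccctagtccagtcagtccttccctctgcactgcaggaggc
Uqcrh (chr4:116075071-116075320, minus strand): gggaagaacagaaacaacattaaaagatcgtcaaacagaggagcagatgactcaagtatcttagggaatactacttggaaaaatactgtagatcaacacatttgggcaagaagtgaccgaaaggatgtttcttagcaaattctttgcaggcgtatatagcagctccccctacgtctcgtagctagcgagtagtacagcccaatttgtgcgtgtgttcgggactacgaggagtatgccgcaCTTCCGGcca
Atp5b (chr10:128083057-128083306, plus strand): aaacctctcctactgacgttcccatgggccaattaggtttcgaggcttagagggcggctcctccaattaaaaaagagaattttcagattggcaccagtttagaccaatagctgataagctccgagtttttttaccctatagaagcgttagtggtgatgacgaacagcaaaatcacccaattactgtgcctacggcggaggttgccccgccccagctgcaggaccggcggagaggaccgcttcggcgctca

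Atp5b and Ndufab1 held none of the 4 motifs in this window, and the table gave no Ndufs1 promoter. Promoters were found for 73 of the 89 nuclear genes. A nuclear gene was counted if any of its listed promoters matched, whereas the share of all promoters counts each promoter separately. The shares below therefore differ in unit, and the differences between them were not tested. The NRF1 core was in 10 of these 73 (13.7%) and in 2.26% of all 32851 promoters, and the ETS core was in 14 (19.2%) against 6.91%. The cAMP response element was in 5 (6.85%) against 1.55%, and the E-box in 5 against 6.02%. Promoters with an NRF1 core belong to genes that went both ways, Cycs and Ndufa6. The median log2 fold change was 0.05 for the 10 tested genes with the core and 0.06 for the 61 without it. It was -0.05 for the 14 genes with the ETS core and 0.06 for the 57 without. For the cAMP response element it was 0.17 in 5 genes against 0.05 in 66, and for the E-box 0.16 in 5 against 0.06 in 66, and these differences were not tested. A match is a run of letters and does not show that a factor binds there.

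Complex I, the NADH dehydrogenase, had 36 tested nuclear subunits, with a median log2 fold change of 0.06. Of the 36, 2 rose and 1 fell (8.33% called, against 19.6% of all tested genes). Ndufs1, a core subunit that carries iron-sulfur clusters in the arm where NADH is oxidized, had 78.6, 77.6 and 83.5 scaled CPM in wild-type and 101, 98.4 and 98.5 in Ahrr-deficient replicates 1, 2 and 3. The libraries of each genotype were close together and the groups did not overlap. The log2 fold change was 0.31 (SE 0.07; adjusted p = 0.0200, edgeR). It was the only one of the 7 tested nuclear core subunits to pass, and the 7 had log2 fold changes of -0.03 to 0.31. Exons of Ndufs1 overlap those of Eef1b2 and Ino80dos on the other strand, and whether counting used the strand is not given in the sources used here.

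Of the 29 accessory subunits of complex I, 1 rose and 1 fell (6.90% called, against 19.6% of all tested genes). Ndufab1, the mitochondrial acyl carrier protein, which also serves in fatty acid and lipoic acid synthesis, had 14.5, 13.52 and 12.3 scaled CPM in wild-type and 22.6, 19.0 and 16.4 in Ahrr-deficient replicates 1, 2 and 3. The groups did not overlap, and here Ahrr-deficient replicate 1 was the highest library. The log2 fold change was 0.47 (SE 0.14; adjusted p = 0.0401, edgeR). Exons of Ndufab1 overlap those of Gm44986 on the other strand, and 8.11% of its windows recur in other genes.

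Ndufa6, an accessory subunit of the LYR family that binds the acyl carrier protein, was the largest fall. It had 73.6, 83.7 and 63.0 scaled CPM in wild-type and 42.0, 49.02 and 54.9 in Ahrr-deficient replicates 1, 2 and 3. Every Ahrr-deficient library was below every wild-type library, with replicate 1 lowest. The log2 fold change was -0.58 (SE 0.13; adjusted p = 0.0170, edgeR). Per length, Ndufa6 and Ndufa7 were the most abundant nuclear complex I transcripts, at 103.5 and 103.2 scaled CPM per kb of transcript over all libraries. The other 27 accessory subunits had adjusted p-values above the threshold. Across the 36 subunits the groups did not overlap for 7, of which 4 were higher and 3 lower. Over all tested genes the groups did not overlap for 38.8%, 19.2% higher and 19.6% lower.

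**Figure D2:**
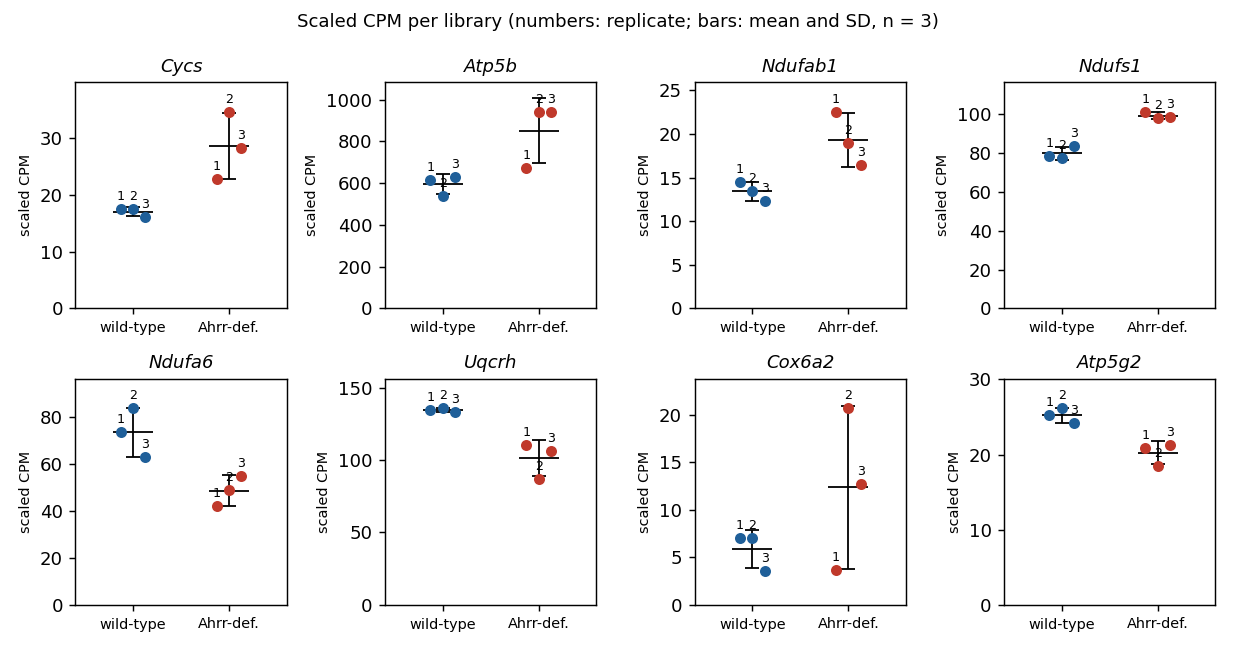
Scaled CPM (vertical axes from 0) of the 6 genes past the threshold and of Cox6a2 and Atp5g2, each library as a numbered point, with mean and SD (n = 3). The groups do not overlap for the first 6 genes or for Atp5g2, whereas Ahrr-deficient replicate 1 of Cox6a2, at 3.62, lies within the wild-type range.

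Complex II, succinate dehydrogenase, which also works in the citric acid cycle, had no call among its 4 subunits, against 19.6% of all tested genes. Log2 fold changes were between -0.06 (Sdha, the flavoprotein) and 0.23 (Sdhc, a membrane anchor), and the smallest edgeR adjusted p was 0.125. Sdhd, the other membrane anchor and the most abundant per length at 124 scaled CPM per kb, had 154, 130 and 146 scaled CPM in wild-type and 147, 160 and 179 in Ahrr-deficient replicates 1, 2 and 3. Both groups overlapped for all 4 subunits. All 4 intervals of the fold change lay within 1.5-fold.

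Complex III had 1 fall among 9 tested nuclear subunits (11.1%) and no rise. Of all tested genes 9.95% fell and 9.62% rose. Uqcrh, the hinge protein beside cytochrome c1, had 134, 136 and 133 scaled CPM in wild-type and 111, 87.3 and 106 in Ahrr-deficient replicates 1, 2 and 3. The wild-type libraries were nearly equal, all were above the Ahrr-deficient ones, and replicate 2 was the lowest. The log2 fold change was -0.42 (SE 0.10; adjusted p = 0.0203, edgeR). Uqcrh is also the most abundant nuclear transcript of the complex per length, at 216 scaled CPM per kb. The median of the 9 subunits was 0.17, with 7 above 0. Chosen after their values were seen, Uqcrc2, a core protein, and Cyc1, cytochrome c1, had log2 fold changes of 0.24 and 0.33, with edgeR adjusted p-values of 0.0642 and 0.0758.

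Complex IV, cytochrome c oxidase, had no call among 12 tested nuclear subunits, against 19.6% of all tested genes. The median log2 fold change of the 12 was -0.03, with 6 above 0 and 6 below. Cox4i1, the ubiquitous form of subunit 4 and the most abundant nuclear subunit per length at 390 scaled CPM per kb, had 321, 296 and 304 scaled CPM in wild-type and 259, 296 and 317 in Ahrr-deficient replicates 1, 2 and 3. The groups overlapped, and the 95% interval of the log2 fold change ran from -0.31 to 0.15. For Cox6b1, a subunit on the intermembrane-space side, the levels were 171, 155 and 170 against 110, 134 and 148, without overlap, but the log2 fold change of -0.33 had an edgeR adjusted p of 0.0636.

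The tissue isoforms of complex IV were mostly the widely expressed ones. The heart and muscle form Cox6a2 was 13.4 scaled CPM per kb against 210.4 for its ubiquitous partner Cox6a1. Cox7a1, another muscle form, and Cox6b2, the testis form, were at 2.11 and 0.986 per kb against 107 for Cox7a2 and 240 for Cox6b1, and neither passed the filter on low counts. Cox4i2, Cox8b and Ndufa4l2, the partners of Cox4i1, Cox8a and Ndufa4, were not analysed here.

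Among these isoforms the levels of the ubiquitous forms overlapped except for Cox6b1. Cox6a1, Cox7a2 and Cox8a had log2 fold changes of -0.17, 0.06 and -0.17, and Ndufa4, now placed in complex IV, 0.26, with edgeR adjusted p-values of 0.158 or more. Cox6a2 had 7.01, 7.02 and 3.57 scaled CPM in wild-type and 3.62, 20.7 and 12.8 in Ahrr-deficient replicates 1, 2 and 3. Replicates 2 and 3 were high and replicate 1 was at the wild-type level. The fitted log2 fold change was 1.25 (SE 0.43; adjusted p = 0.0731, edgeR), and the value rested on single libraries: it was 1.503 (adjusted p = 0.00418) without Ahrr-deficient replicate 1 and 0.631 (adjusted p = 0.381) without Ahrr-deficient replicate 2. It passed in 3 of the 17 alternative settings, namely without Ahrr-deficient replicate 1, without that library and wild-type replicate 2 together, and with no filter on low counts. Exons of Cox6a2 overlap those of the integrin gene Itgad on the other strand, so its reads cannot be assigned with certainty.

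Complex V, ATP synthase, had 1 rise among 15 tested subunits (6.67%) and no fall, against 9.62% and 9.95% of all tested genes. The median log2 fold change of the 15 was 0.14. Atp5b, which encodes the beta subunit that holds the catalytic sites, had 617, 539 and 630 scaled CPM in wild-type and 671, 942 and 939 in Ahrr-deficient replicates 1, 2 and 3. All Ahrr-deficient libraries were higher, with replicate 1 close to wild-type. The log2 fold change was 0.52 (SE 0.15; adjusted p = 0.0415, edgeR). Atp5b was the most abundant nuclear transcript of its complex per length, at 377 scaled CPM per kb.

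The other 4 subunits of the catalytic F1 head did not pass. Atp5a1, the alpha subunit that alternates with beta, was named after its values were seen: it had 641, 551 and 645 scaled CPM in wild-type and 686, 779 and 820 in Ahrr-deficient replicates 1, 2 and 3. The groups did not overlap, and the log2 fold change was 0.32 (SE 0.12; adjusted p = 0.0888, edgeR). The summed level of the complex V subunits was 2390 ± 140 scaled CPM (SD, n = 3) in wild-type and 2839 ± 379 in Ahrr-deficient cells. Those sums overlapped, as did the sums of the nuclear subunits of each of the other 4 complexes.

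The c-ring of ATP synthase, through which protons pass, is built from 1 mature protein encoded by Atp5g1, Atp5g2 and Atp5g3. None of these genes passed the threshold. Atp5g2 had 25.3, 26.2 and 24.1 scaled CPM in wild-type and 20.9, 18.5 and 21.3 in Ahrr-deficient replicates 1, 2 and 3, without overlap, a log2 fold change of -0.33 (SE 0.10; adjusted p = 0.0505, edgeR). Atp5g1 and Atp5g3 had log2 fold changes of 0.28 and 0.16, with overlapping groups. Per length Atp5g3 was the highest of these genes, at 223 scaled CPM per kb, against 31.1 for Atp5g2 and 6.41 for Atp5g1. Since 35.8% of the windows of Atp5g2 recur in other annotated genes, its value is uncertain. The other stalk and membrane subunits of the 10 in this class had log2 fold changes with edgeR adjusted p-values of 0.0686 or more.

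The 10 factors were 8 Ndufaf assembly factors of complex I, Atp5s and Cox7a2l. Cox7a2l is described as joining complexes III and IV, a role that was not tested in these cells. None of the 10 factors was called, against 19.6% of all tested genes, and the log2 fold changes ran from -0.34 to 0.49. Per length the Ndufaf transcripts were at 3.07 to 8.79 scaled CPM per kb. The median SE of the 10 factors, 0.18, was larger than the 0.12 of the subunits, and the interval of the fold change lay within 1.5-fold for 4 of 10, so a change of that size was not excluded for the other 6.

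The 7 tested mitochondrially encoded subunits were, per length, the most abundant of all, and their genotype differences did not pass the threshold. Together the mitochondrial genes took 1.73%, 1.44% and 1.95% of all counts in wild-type replicates 1, 2 and 3 and 2.22%, 1.89% and 1.94% in the Ahrr-deficient ones. Wild-type replicate 2, the library rich in ribosomal RNA, was lowest, Ahrr-deficient replicate 1 was highest, and the groups overlapped. The means were 1.71% ± 0.26 and 2.02% ± 0.18 (SD, n = 3). The nuclear members took less, 0.593% to 0.724% in wild-type and 0.641% to 0.819% in Ahrr-deficient libraries.

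mt-Co1, the catalytic subunit of complex IV, had 9325, 8781 and 10063 scaled CPM in wild-type and 11931, 9491 and 9818 in Ahrr-deficient replicates 1, 2 and 3, a log2 fold change of 0.15. mt-Cytb, the cytochrome b of complex III, had 1765, 1464 and 2021 against 2212, 2058 and 2047, a log2 fold change of 0.27. The groups overlapped for mt-Co1 and did not for mt-Cytb, where wild-type replicate 2 was the lowest.

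The rest are core subunits of the membrane arm of complex I. mt-Nd4 had 860, 735 and 886 scaled CPM in wild-type and 1134, 970 and 929 in Ahrr-deficient replicates 1, 2 and 3, the largest fitted change of this set with a log2 fold change of 0.29 (SE 0.13; adjusted p = 0.132, edgeR). Its groups did not overlap, which makes 2 of the 7 tested mitochondrial genes, against 38.8% of all tested genes. For mt-Nd5 the levels were 2269, 2109 and 2636 against 3114, 2558 and 2768. mt-Nd6, the subunit read from the other strand of mitochondrial DNA, had 632, 606 and 784 against 790, 729 and 837. Wild-type replicate 3 was the highest wild-type library for both genes and lay within the Ahrr-deficient range. For mt-Nd2 they were 1086, 932 and 1178 against 1300, 1069 and 1132. mt-Nd1 was nearly equal in the groups, with 1383, 1268 and 1504 against 1528, 1301 and 1286. The groups overlapped for these genes too.

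Log2 fold changes of these 4 genes were 0.27, 0.22, 0.13 and -0.01 in the order given, so 6 of the 7 tested mitochondrial genes were above 0, with a median of 0.22. All 7 intervals lay within 1.5-fold. With offsets for GC content, added after seeing the data, the median was 0.03. Every one of these genes has a low GC content, 34.1% to 39.9%, against a median of 51.2% for the nuclear members.

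Per length, mt-Co1 was at 6409 scaled CPM per kb, mt-Cytb at 1685, and mt-Nd1, mt-Nd5, mt-Nd6, mt-Nd2 and mt-Nd4 at 1440, 1412, 1405, 1075 and 667. The most abundant nuclear subunits of the same complexes were at 390 (Cox4i1), 216 (Uqcrh) and 103.5 (Ndufa6). mt-Nd3 was the exception: it had 1, 2 and 1 counts in wild-type and 0, 6 and 0 in Ahrr-deficient replicates 1, 2 and 3, and was not tested. The end of its coding sequence is shown with that of Gm28438, a copy on chromosome 1 (GRCm38, 24612775 to 24613119), from the GENCODE M21 transcripts, because the genes share a run of 342 identical bases. Capitals mark the last 60 bases of that run.
mt-Nd3: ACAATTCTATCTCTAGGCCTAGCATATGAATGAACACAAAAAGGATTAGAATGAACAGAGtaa
Gm28438: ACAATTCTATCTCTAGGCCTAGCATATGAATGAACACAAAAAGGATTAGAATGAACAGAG

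Of the 75-base windows of mt-Nd3, 97.8% also occur in a transcript of another annotated gene, and Gm28438 had 119 counts over the 6 libraries. A read of that length from such a window cannot be placed in 1 gene by its sequence. The share was 61.5% for mt-Nd4 and 39.8% for mt-Co1, 5.71% for mt-Nd2, 1.66% for mt-Nd5 and 0 for mt-Nd1, mt-Nd6 and mt-Cytb. Whether this lowered the levels of mt-Nd4 and mt-Co1 was not tested. mt-Nd5 and mt-Nd6 overlap on opposite strands, and whether counting used the strand is not given in the sources used here. The level of mt-Nd6 is therefore uncertain.

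**Figure D3:**
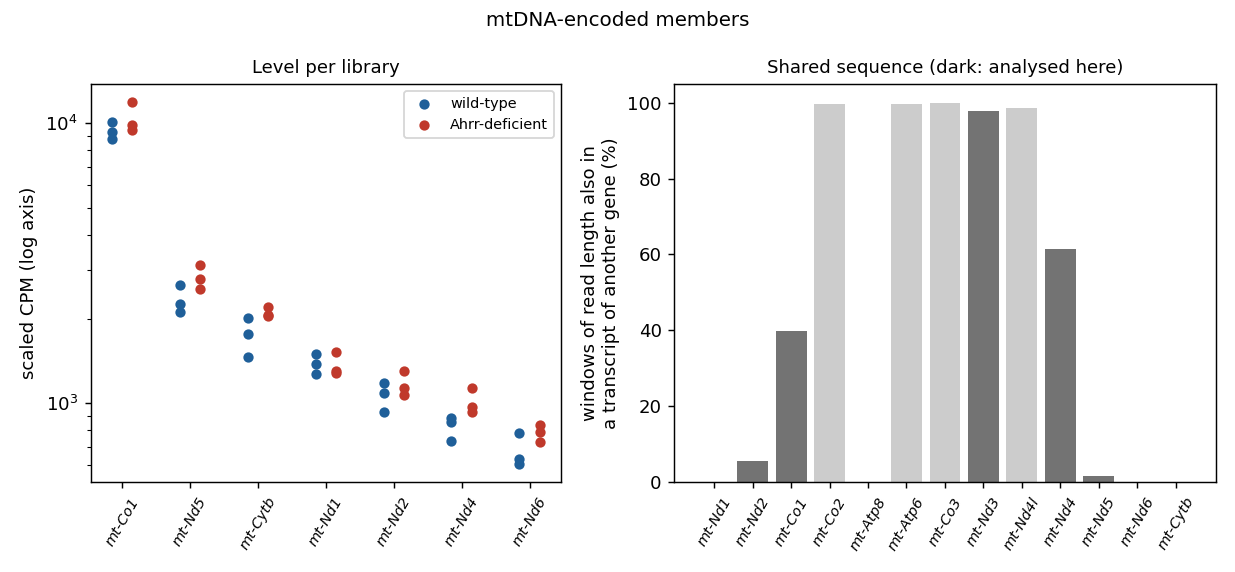
Left, scaled CPM (log axis) of the 7 tested mitochondrially encoded genes, 1 point per library in blue (wild-type) or red (Ahrr-deficient); right, the percent of 75-base windows of each mitochondrial coding gene found in a transcript of another gene, with genes analysed here in dark grey. Levels run from 606 (mt-Nd6) to 11931 (mt-Co1), and the groups are apart for mt-Nd4 and mt-Cytb.

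Ahrr-deficient replicate 1, the library with the fewest counts, differed from the other Ahrr-deficient libraries across the nuclear members. It was the lowest of the 6 libraries for 45 of the 87 nuclear genes (51.7%), against 24.01% of all tested genes. Relative to the wild-type mean, 63 of 87 nuclear genes were lower in replicate 1, against 26 in replicate 2 and 23 in replicate 3. The difference from wild-type in replicate 1 followed GC content: the median was -0.01 (log2) for the 44 nuclear genes at or below the median GC of 51.2% and -0.33 for the 43 above it. In replicates 2 and 3 those medians were 0.20 and 0.12, and 0.16 and 0.11. The Spearman correlation of the difference with GC content was -0.55, -0.31 and -0.23 in replicates 1, 2 and 3. The trend thus had the same sign in each Ahrr-deficient library and was strongest in replicate 1. The part of GC content in the group comparison was examined with the offsets, under which 6 nuclear genes passed, 4 of them among the 6 reported, against 17.5% of all tested genes.

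Leaving out Ahrr-deficient replicate 1 raised the number of nuclear genes past the threshold from 6 to 27, with 22 higher and 5 lower, and all 6 reported genes were among them. In that fit 32.6% of all tested genes were called, 16.0% higher and 16.6% lower. With both directions together, 27 is close to the background share if set against the 87 nuclear genes tested with all 6 libraries. Low counts were filtered anew in the fit without replicate 1, so its number of tested nuclear genes may differ. By direction the calls differed from it: 81.5% of the 27 were higher, whereas over all tested genes rises and falls were about equally frequent. The genes added, named after their values were seen, included members of all 5 complexes, with Atp5a1, Atp5f1, Atp5j, Cyc1, Uqcrc2, Sdhc, Ndufs4 and Cox5b among the rises. Leaving out wild-type replicate 1 or wild-type replicate 2 left Cycs alone, against 6.07% and 8.15% of all tested genes. Without wild-type replicate 3 Cycs and Ndufa6 passed, against 9.35% of all tested genes, and without Ahrr-deficient replicate 2 Cycs and Uqcrh did, against 8.31%. Without Ahrr-deficient replicate 3, Cycs, Ndufa6, Ndufab1 and Uqcrh stayed past the threshold and Cox6b1 and Ndufb10 joined them, against 10.3%. No mitochondrial gene passed in any of these fits. Without both wild-type replicate 2 and Ahrr-deficient replicate 1, a choice made after seeing the data, 17 nuclear genes passed, against 25.6% of all tested genes.

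**Figure D4:**
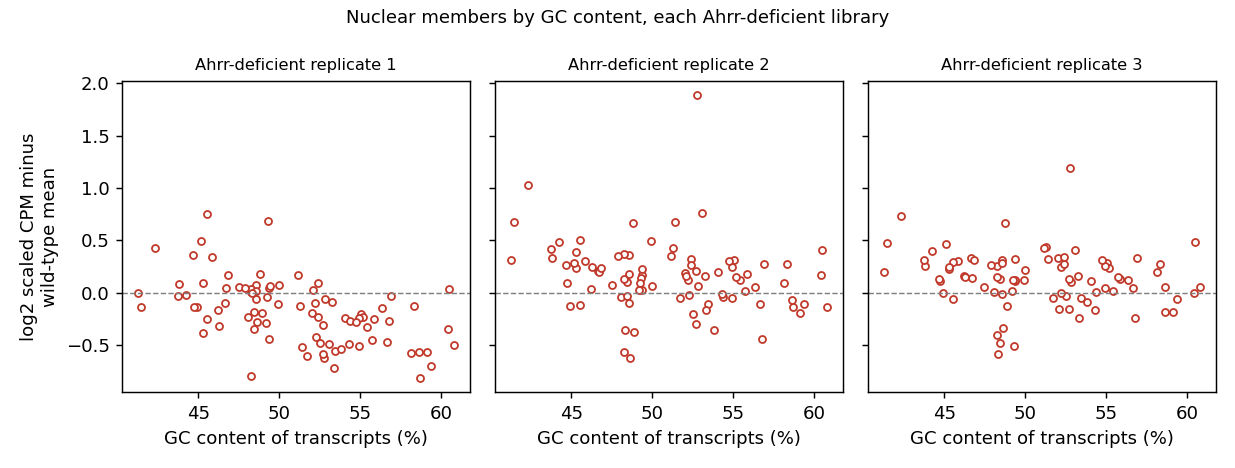
Difference of log2 scaled CPM from the wild-type mean (vertical axis) against the GC content of transcripts (horizontal axis, %) for the 87 nuclear genes, in 1 panel per Ahrr-deficient library. In replicate 1 the genes of high GC lie mostly below 0, with a median of -0.33 above 51.2% GC, whereas in replicates 2 and 3 the medians on both sides of that GC content are above 0.

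Of 118 tested genes around the pathway, in 5 lists, 14 rose (11.9%) and 4 fell (3.39%), against 9.62% and 9.95% of all tested genes. With both directions together, 15.3% of the 118 passed, against 19.6% of all tested genes. The lists were chosen with earlier results of these data known, so the shares only describe the genes listed. Among the 10 transcription regulators of respiratory genes 4 rose (40.0%) and none fell, against the same 9.62% and 9.95%. Myc, a growth regulator with many mitochondrial targets, had 26.8, 19.0 and 18.7 scaled CPM in wild-type and 71.8, 107 and 160 in Ahrr-deficient replicates 1, 2 and 3, without overlap, a log2 fold change of 2.37 (SE 0.27; adjusted p = 0.00184, edgeR).

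Ppargc1b, a coactivator of the PGC-1 family, had 12.1, 8.25 and 12.3 scaled CPM in wild-type and 19.2, 20.1 and 22.2 in Ahrr-deficient replicates 1, 2 and 3, also without overlap, a log2 fold change of 0.88 (SE 0.15; adjusted p = 0.00634, edgeR). The related coactivator Pprc1 rose by a log2 fold change of 0.61, although Ahrr-deficient replicate 1, at 29.0, lay among the wild-type libraries, and Gabpb2, a subunit of the ETS factor GABP, rose by 0.28. Pprc1 passed in 10 and Gabpb2 in 5 of the 17 alternative settings. Exons of Pprc1 and Gabpb2 overlap another gene on the opposite strand.

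In the citric acid cycle and pyruvate entry 4 of 18 genes (22.2%) rose and none fell, against 9.62% and 9.95% of all tested genes. In either direction 19.6% of all tested genes passed. The list median log2 fold change was 0.18. Idh3a, the catalytic subunit of the NAD-dependent isocitrate dehydrogenase, had 24.1, 22.6 and 22.4 scaled CPM in wild-type and 30.4, 42.9 and 41.4 in Ahrr-deficient replicates 1, 2 and 3. The groups did not overlap, and the log2 fold change was 0.76 (SE 0.13; adjusted p = 0.00672, edgeR). Dlat, Dld and Pdha1, parts of the pyruvate dehydrogenase complex, rose by 0.40, 0.39 and 0.32 on the log2 scale, each without overlap between the groups. Exons of Pdha1 overlap those of Map3k15 on the opposite strand.

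Of 28 genes for mitochondrial DNA replication, transcription and RNA stability, 2 rose (7.14%) and 1 fell (3.57%). Over all tested genes the shares were 9.62% and 9.95%. Polg, the catalytic subunit of the mitochondrial DNA polymerase, had 12.4, 16.9 and 16.7 scaled CPM in wild-type and 5.57, 5.93 and 5.89 in Ahrr-deficient replicates 1, 2 and 3. The Ahrr-deficient libraries were nearly equal and all lower, and the log2 fold change was -1.35 (SE 0.16; adjusted p = 0.00228, edgeR). Exons of Polg overlap those of Fanci on the opposite strand. Lrpprc, which stabilizes mitochondrial mRNA, and Trmt10c, a subunit of mitochondrial RNase P, rose by 0.42 and 0.38 on the log2 scale.

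Among the 46 assembly factors 2 rose and 2 fell (4.35% each), against 9.62% and 9.95% of all tested genes. Their median log2 fold change was -0.05. Tmem70, needed for ATP synthase assembly, and Tmem126a, linked to complex I assembly, rose by 0.53 and 0.47, and the complex IV factors Pet100 and Surf1 had log2 fold changes of -0.43 and -0.36, below wild-type without overlap. Exons of Pet100 and Surf1 overlap another gene on the opposite strand. In the list of other electron input to ubiquinone, 2 of 16 rose (12.5%) and 1 fell (6.25%), against the same 9.62% and 9.95%. Pdss1, which makes the ubiquinone side chain, rose by 0.86, and Gpd2, the mitochondrial glycerol phosphate dehydrogenase, rose by 0.54.

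Coq8a, a kinase-like protein of ubiquinone synthesis, had 39.2, 37.2 and 40.9 scaled CPM in wild-type and 26.2, 13.6 and 16.5 in Ahrr-deficient replicates 1, 2 and 3. All Ahrr-deficient libraries were lower, with a log2 fold change of -1.18 (SE 0.20; adjusted p = 0.00629, edgeR). Exons of Coq8a overlap those of Cdc42bpa on the other strand, and those of Pdss1 and Gpd2 overlap other genes. Myc, Ppargc1b, Idh3a, Polg and Coq8a passed in all 17 alternative settings, while the other 13 genes were lost in at least 1.

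**Figure D5:**
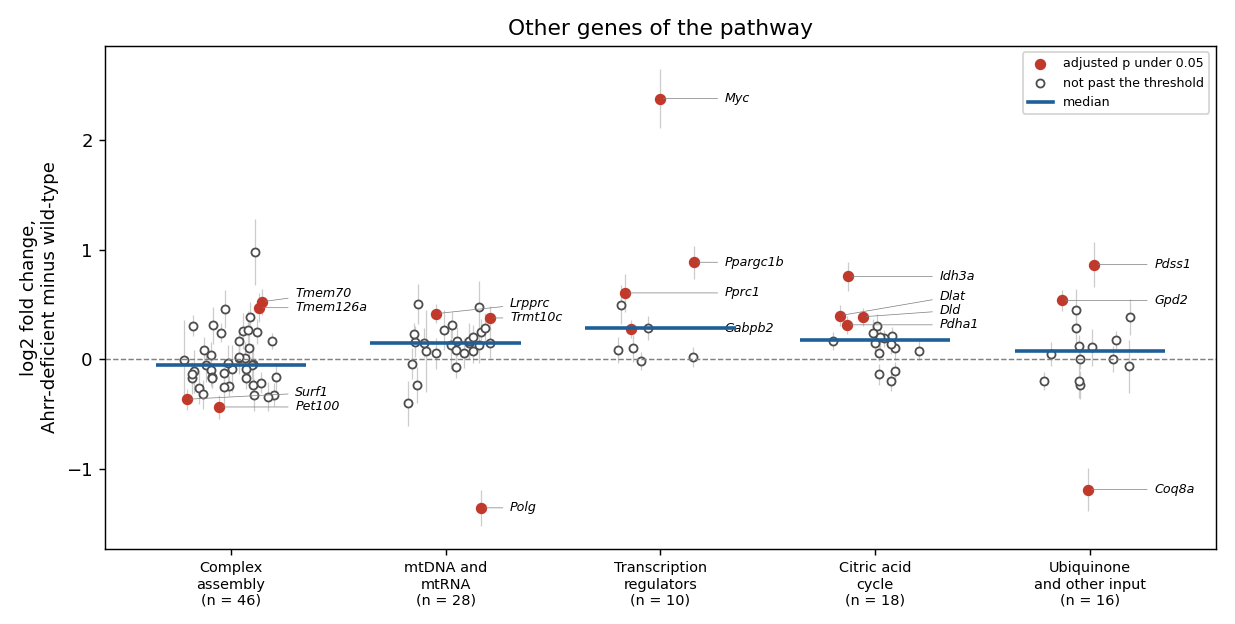
Log2 fold change (Ahrr-deficient minus wild-type, vertical axis) of 118 tested genes around oxidative phosphorylation in 5 lists, with SE bars; red points passed an edgeR adjusted p under 0.05 and blue lines are medians. Myc lies far above the rest at 2.37 and Polg and Coq8a lie lowest, at -1.35 and -1.18.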

How the data were processed

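The authors deposited raw read counts per feature for 6 libraries, in a table of 53465 features without identifiers, and a normalized signal with identifiers for 16111 genes. Each deposited signal was a whole multiple of 1 read (100% of values, tolerance 1e-06 reads), and the recovered reads matched the raw counts of features with at least 10 counts, which joined identifiers to counts. Features without an identifier held at most 0.0511% of a library's counts. CASAVA 1.8.2, fastp 0.20.0, STAR 2.7.10b, SAMtools 1.16.1, R 4.3.1, DESeq2 1.40.2 and the mm10 build were used, per the submitters' processing notes. The counting program, annotation and strand setting are not given in the sources used here.

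Counts were tested with edgeR 4.0.16 (quasi-likelihood, TMM, filterByExpr, genotype only, two-sided) in R 4.3.3, with Benjamini-Hochberg adjustment over all 11408 tested genes. The procedure was also run on simulated counts with the same spread for every gene and no trend with GC content. That run cannot show how the procedure behaves where a library follows GC content. SEs were derived from the F statistic. Overlaps, GC content, 75-base windows and transcript lengths came from GENCODE M21, in which 16094 identifiers were found, and promoters from RefSeq. Replicates are separate mice by their labels. Members and lists were chosen with earlier results of these data known. Named genes are all mitochondrial members, members past the threshold, the most abundant per length, isoform pairs, Atp5g1 to Atp5g3, and listed pathway genes past the threshold. Alternatives were RLE and upper-quartile scaling, other filters, DESeq2 1.42.0, limma 3.58.1 (voom), a replicate block, thinning, scaling without mitochondrial genes and each library left out. P-values set the difference between genotypes against the spread between the libraries within a genotype.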

Additional observations from a re-analysis of the deposited data

How the results depend on the processing

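Of 877 alternative values for 52 named genes, 10 of them chosen after their values were seen, 714 kept direction and side of the threshold, 117 lost the call, 34 gained one and 12 changed sign, none of them past the threshold in either fit. The sign changes with GC offsets were Cox4i1 to 0.0087, Cox6a1 to 0.0118, Cox7a2 to -0.0090, mt-Nd2 to -0.0637 and mt-Co1 to -0.0237. With thinning to the smallest total, Cox7a2 went to -0.0106. Without wild-type replicate 2 and Ahrr-deficient replicate 1 together, mt-Nd2 went to -0.0379 and mt-Co1 to -0.0033. With 1 library left out, the lowest and highest values were -0.0575 to 0.182 for Cox7a2 and -0.107 to 0.0418 for mt-Nd1.

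The count of nuclear members past the threshold was 12 with no filter and 17 without wild-type replicate 2 and Ahrr-deficient replicate 1 together, and 1 to 27 with 1 library left out. It was 4 to 8 in the other settings, and upper-quartile scaling gave 3 higher and 3 lower (50% higher, against 66.7% reported). For all genes the count was 1390 with the replicate block, 1250 with thinning, and 694 to 3857 with 1 library left out. For the other pathway genes, 18 as reported, it was 8 with the replicate block, 7 with thinning and 6 to 31 with 1 library left out. The mitochondrial count was 0 in all 16 alternatives, and the mitochondrial median log2 fold change was 0.0336 with GC offsets. The cause of these shifts was not tested.

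Libraries that share a replicate number come from different mice, and their deviations from the group means correlated by -0.17, 0.07 and 0.13. These low values of both signs showed no pairing by number. Whether libraries of the same number shared a culture or library batch was not tested. With the replicate block 4 nuclear members passed, and Atp5b and Ndufs1 were lost.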
